A study of Homo sapiens with 16 samples.

Results

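The genes described here are 36 glycolytic enzymes, sugar and lactate transporters and targets of the hypoxia-inducible factors (HIFs), taken by symbol from the 62754 genes counted in 16 libraries. They were chosen by name and not by a rule on their values, though with earlier results of these data known. The libraries came from planar cultures of stem-cell-derived islets, made from the wild-type human embryonic stem cell line HUES08, an established line, and sequenced as total RNA from whole cultures. Each group held 2 libraries, and all 16 carried the batch label 1. A compound, or the solvent DMSO alone, was present from stage 5 until day 7 of stage 6. A computational method had nominated the compounds for a predicted effect on beta cell maturation. They were colchicine at 10 nM (a tubulin binder), epirizole at 2.5 uM (an anti-inflammatory drug), Ly-294002 at 120 nM (a phosphoinositide kinase inhibitor) and moxifloxacin at 1.1 uM (a fluoroquinolone antibiotic). The other 3 were rottlerin at 1.23 uM (a plant polyphenol), vardenafil at 125 nM (an inhibitor of cGMP phosphodiesterase) and rimonabant at 125 nM (a cannabinoid receptor inverse agonist). The labels do not tell whether 2 libraries of a treatment are separate differentiations, so the error behind each p-value is that between libraries and may be technical. All 7 comparisons share the 2 DMSO libraries, so they are not independent of each other.

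Library totals ran from 23294377 to 30701868 reads, and a count of 3 equalled 0.0977 to 0.129 CPM before TMM scaling, a limit that covers counting error only. CPM relates a gene's count to the size of its library, and all levels given for single genes are TMM-scaled. Sums over lists of genes, here and below, are CPM without TMM scaling. The labelled tissue is islets, and the 14 endocrine marker genes summed to 253.2 to 707.7 CPM per library. Markers of liver and gut summed to 6119 to 11490 CPM and those of mesenchyme to 1076 to 3120 CPM. Transcripts listed as markers of other cell types were thus measured in every library. The sums depend on which genes are listed, and the endocrine list holds no hormone gene, so they do not give shares of cell types. The 5 blood genes summed to at most 1.074 CPM, with 1 of them at 0 throughout. In bulk RNA, fewer cells of a type and less RNA per cell cannot be told apart.

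Glycolysis splits glucose into pyruvate, and lactate dehydrogenase turns pyruvate into lactate when mitochondria do not take it up. Under low oxygen the HIF proteins escape hydroxylation and destruction, pair with ARNT and bind DNA at a short core motif, raising the glucose transporters, most glycolytic enzymes and genes of mitophagy and vessel growth. Mature beta cells are known for a low level of LDHA and of lactate transport.

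The start regions of 4 genes are shown, because PGK1, LDHA and BNIP3 moved closely together across the libraries and PFKL did not. Each runs from 250 bases before to 50 bases after a RefSeq start on GRCh38.p14, read 5′ to 3′ on the gene's strand. Capitals mark ACGTG, a form of the core of the HIF response element, or its reverse complement CACGT. Where both overlap they form the E-box CACGTG and count as 1 place. The other form of the core, GCGTG, is not in capitals.
PGK1, chrX:78103998-78104297, plus strand: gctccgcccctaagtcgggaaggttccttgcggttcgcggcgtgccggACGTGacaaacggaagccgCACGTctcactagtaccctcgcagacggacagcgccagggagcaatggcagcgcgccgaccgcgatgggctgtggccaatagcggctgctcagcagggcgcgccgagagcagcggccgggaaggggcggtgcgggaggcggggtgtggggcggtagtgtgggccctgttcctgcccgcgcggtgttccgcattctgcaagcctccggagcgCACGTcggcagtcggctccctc
LDHA, chr11:18394313-18394612, plus strand: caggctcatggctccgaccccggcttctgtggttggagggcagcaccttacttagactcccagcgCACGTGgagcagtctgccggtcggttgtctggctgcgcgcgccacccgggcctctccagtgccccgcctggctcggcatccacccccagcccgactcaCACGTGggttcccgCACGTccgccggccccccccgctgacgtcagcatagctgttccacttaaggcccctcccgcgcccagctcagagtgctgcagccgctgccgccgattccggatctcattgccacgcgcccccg
BNIP3, chr10:131981874-131982173, minus strand: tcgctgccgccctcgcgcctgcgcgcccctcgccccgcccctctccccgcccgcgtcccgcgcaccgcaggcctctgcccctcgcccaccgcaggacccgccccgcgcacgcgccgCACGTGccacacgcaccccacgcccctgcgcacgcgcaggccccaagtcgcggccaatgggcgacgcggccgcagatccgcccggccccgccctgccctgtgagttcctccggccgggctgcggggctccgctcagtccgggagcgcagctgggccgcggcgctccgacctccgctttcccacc
PFKL, chr21:44299803-44300102, plus strand: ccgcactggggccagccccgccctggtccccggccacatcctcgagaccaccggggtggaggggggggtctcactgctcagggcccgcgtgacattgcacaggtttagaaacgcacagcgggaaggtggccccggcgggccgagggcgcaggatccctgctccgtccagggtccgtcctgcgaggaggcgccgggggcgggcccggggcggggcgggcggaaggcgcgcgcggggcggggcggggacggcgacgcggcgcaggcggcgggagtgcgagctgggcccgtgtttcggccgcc
Positions count the start base as 1, with no base numbered 0. The places begin at -202, -183 and 29 in PGK1 (phosphoglycerate kinase). They begin at -185, -87 and -73 in LDHA (the lactate dehydrogenase subunit that favours lactate), and at -134 in BNIP3 (a receptor for mitophagy). The window of PFKL, the liver-type phosphofructokinase, held no ACGTG but 1 place of GCGTG. RefSeq gave windows for 32 of the 36 genes and for all but SLC2A3, VEGFA, BNIP3L and NDRG1. ACGTG on either strand lay in 24 of 61 windows (39.3%), against 21.4% of 35116 windows of all genes. At least 2 places lay in 8 windows (13.1%), against 3.4%. Counted per gene, 20 of 32 genes (62.5%) had it in some window, against 24.9% of 27305 genes. With ACGTG or GCGTG counted, 29 of 32 had a match, against 52.4% of genes. The genes here had more windows each than the average gene. ACGTG and likeness to PGK1 across libraries did not match gene by gene, and their relation over the whole list was not tested. LDHA, BNIP3, P4HA1, HK2 and ENO2, with the highest Pearson r to PGK1, had ACGTG. PFKL, LDHB and ADM, with a negative r, did not. Other genes went the other way. ENO1, PFKFB4 and PKM, with a Pearson r of 0.95, 0.86 and 0.85 to PGK1, had no ACGTG in their windows. The window of ENO1 held 2 places of GCGTG. PFKM, PFKFB3 and ANGPTL4, with r of -0.11, 0.05 and 0.02, had it in at least 1 window. The other RefSeq window of LDHA held none either. These matches describe the letters only.

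RPKM is CPM divided by the length in kilobases of all annotated exons of a gene, which can exceed that of its main transcript. Per base of exon, the most abundant of the genes were GAPDH, with a median of 361.6 RPKM, the neuronal-type glucose transporter SLC2A3 at 308.2, and the enolase ENO1 at 133.4. The order depends on this length: by CPM the median of SLC2A3 (1898) was above that of GAPDH (1078). TPI1 followed at 110.3 RPKM, the glucose transporter SLC2A1 at 102.4 and LDHA at 87.64. PGK1 stood at 54.75 RPKM. At the low end were the HIF prolyl hydroxylase EGLN3 at 1.211 RPKM, ANKRD37 at 1.117, the lipase inhibitor ANGPTL4 at 0.3527 and CA9 at 0.06012. CA9, a carbonic anhydrase of the cell surface, had 0 to 10 reads per library and failed the filter on low counts. The other 35 genes were tested among 24515.

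Most of these genes were lower with 6 of the 7 compounds than with DMSO, and were slightly higher with vardenafil. The 1 gene that passed the test across the genome, PFKL with rimonabant, was higher and not lower. The median log2 difference of the 35 genes was -0.46 with colchicine, -0.34 with moxifloxacin, -0.27 with Ly-294002, -0.27 with rimonabant, -0.24 with epirizole and -0.12 with rottlerin. With vardenafil it was 0.10. Over all tested genes the median lay between -0.01 and 0.00 in each of these comparisons. The SD between the libraries of a group was 0.168 for the genes' median deviation, so the values for rottlerin and vardenafil were within that spread. Without rottlerin 1 the rottlerin median was 0.05 and without rottlerin 2 it was -0.29; for epirizole the values were -0.03 and -0.44, and without DMSO 2 the median for Ly-294002 was -0.09. The heat map of deviations from DMSO shows that the cultures of 1 treatment often differed: the median deviation was -0.43 in epirizole 1 against -0.03 in epirizole 2, and -0.29 in rottlerin 1 against 0.05 in rottlerin 2. Both colchicine libraries were low, at -0.51 and -0.43, and the DMSO libraries stood at -0.10 and 0.10.

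**Figure D1:**
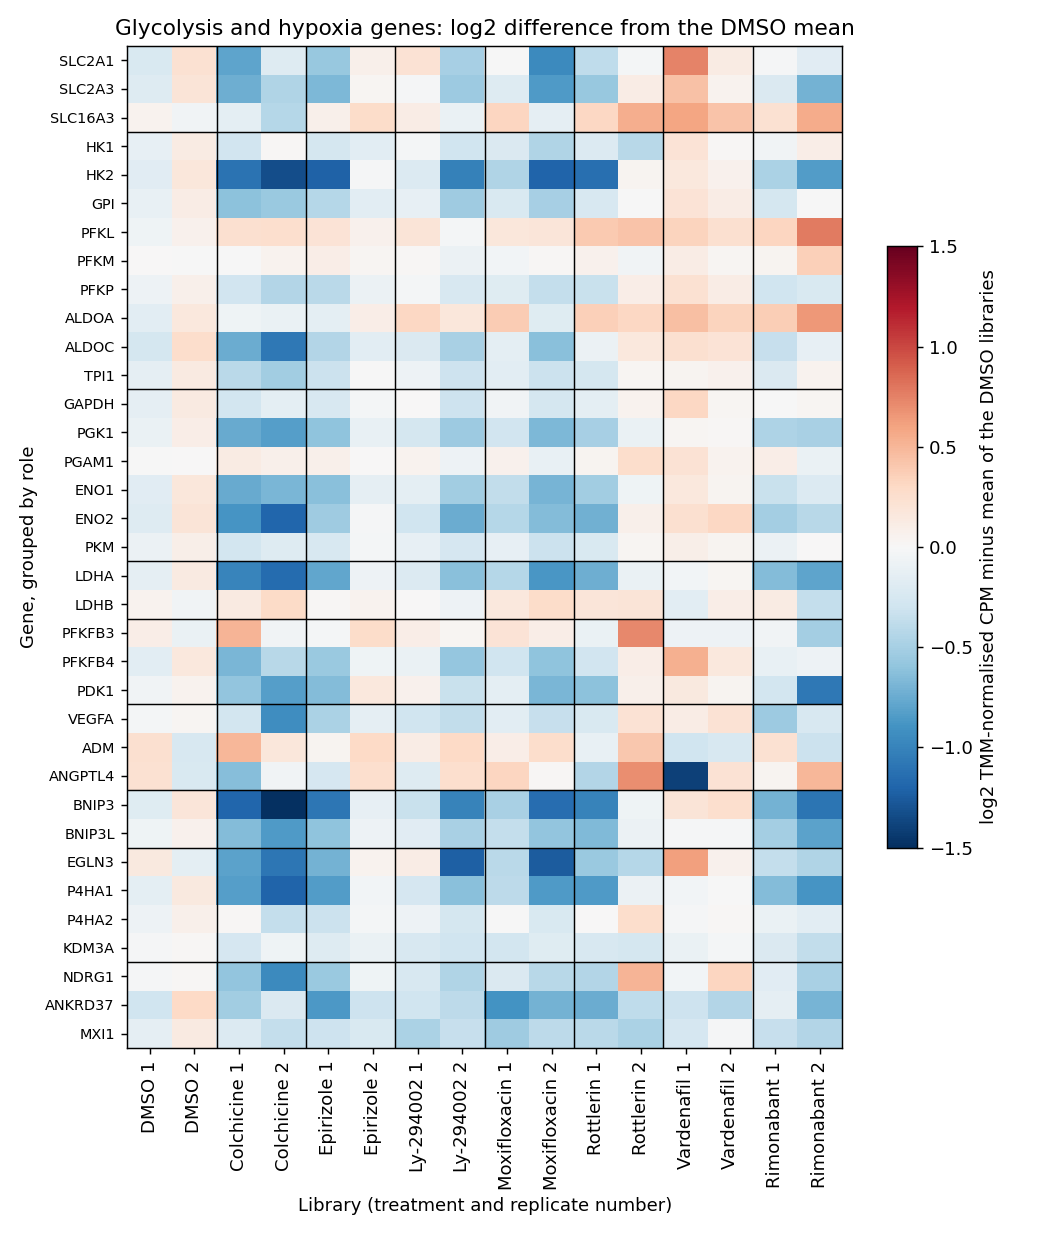
Log2 TMM-normalised CPM of the 35 tested genes (rows, grouped by role) in each of the 16 libraries (columns), minus the mean of the 2 DMSO libraries; blue is lower and red higher, and the colour scale ends at 1.5. Both colchicine libraries are blue over most rows (29 of 35 genes below the DMSO mean in each), while most rows of the vardenafil libraries are near white or red (12 and 7 of 35 genes below the DMSO mean). ANGPTL4 in vardenafil 1, at 0.3188 CPM, is an exception.

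By edgeR's quasi-likelihood test with Benjamini-Hochberg adjustment, 1 gene passed the threshold of 0.05 in any comparison with DMSO: PFKL, higher with rimonabant. For colchicine no gene passed, where 0.196% of all tested genes did; 18 of the 35 had an unadjusted p under 0.05, as did 17.5% of all genes, and DESeq2 called 11, all lower, and 3.78% of all genes. With epirizole, Ly-294002, moxifloxacin and vardenafil no gene of the list passed, and 0% of all genes did; the genes with an unadjusted p under 0.05 numbered 1, 3, 9 and 2, against 5.26%, 4.69%, 11.9% and 5.22% of all genes. DESeq2 called 0 of the list with each of the 4, and 0%, 0%, 0.253% and 0.00816% of all genes. Rottlerin gave no call in the list and 0.00816% of all genes, with 5 genes under an unadjusted p of 0.05, against 14.8% of all genes, and 1 called by DESeq2, which called 2.77% of all genes. For rimonabant 7.8% of all genes passed, 9 of the 35 had an unadjusted p under 0.05, as did 24.8% of all genes, and DESeq2 called 6, and 12% of all genes. At an unadjusted p under 0.05 the list's counts for epirizole, Ly-294002, rottlerin, vardenafil and rimonabant were thus near the share of all genes. All 7 compounds together against DMSO gave no call (0% of all genes), with 10 of the 35 under an unadjusted p of 0.05, against 16.6% of all genes, and 1 called by DESeq2, which called 2.91% of all genes. Leaving out 1 library gave 1 call for colchicine without either library of epirizole (132 and 126 of all genes called) or of rimonabant (503 and 525). For rimonabant it gave 0 to 3 calls: 3 without rimonabant 1, where 3913 of all genes were called, and 2 without either library of epirizole or rottlerin, where 1767 to 1818 were, so these counts did not exceed the share of all genes. A test of any difference among the 7 compounds gave none either (0.00408% of all genes), with 10 under an unadjusted p of 0.05, against 9.01% of all genes, and 7 called by DESeq2, which called 1.64% of all genes.

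Genes with every compound library below both DMSO libraries were also counted. They numbered 23 of 35 with colchicine, against 25.8% of all tested genes, and 21 with moxifloxacin, against 24.4%. For rimonabant they numbered 17 (background 26.4%), for Ly-294002 14 (19.5%), for epirizole 10 (19%), for rottlerin 6 (24.4%) and for vardenafil 2 (20%). With vardenafil 10 genes had every library above both DMSO libraries, against 19.4% of all genes. A single gene, the histone demethylase KDM3A, was below both DMSO libraries in all 14 compound libraries, where 3.59% of all genes were.

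**Figure D2:**
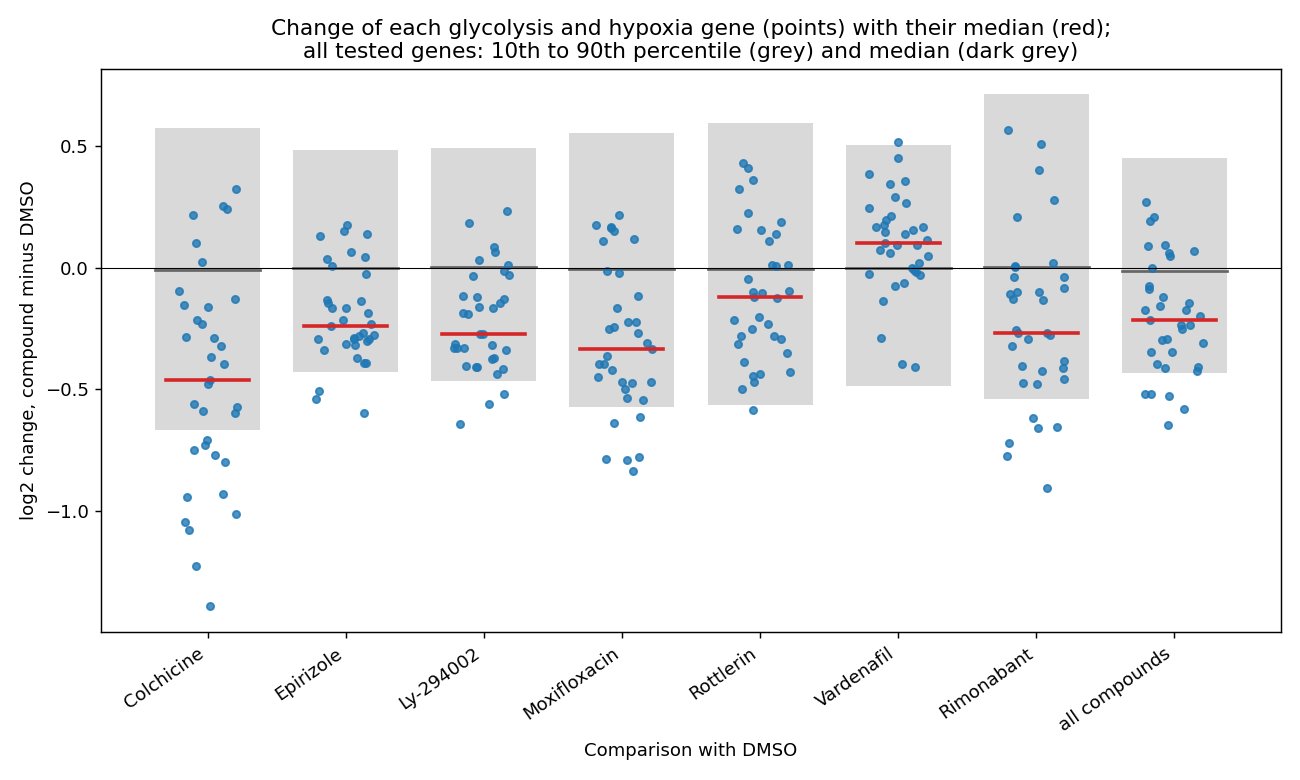
Log2 difference from DMSO (vertical axis) for the 35 tested genes (points) in each comparison (horizontal axis), with their median in red; grey boxes span the 10th to 90th percentile of all tested genes. The red line is lowest for colchicine (-0.46), where 12 points fall below the grey box, and is above 0 only for vardenafil (0.10).

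Other properties of the libraries moved together with the difference between DMSO and the compounds. Summed transcripts of the mitochondrial genome were 25380 to 26970 CPM with DMSO and 13710 to 23970 CPM with the compounds. The GC slope was the median log2 deviation of genes in the top quartile of transcript GC content minus that in the bottom quartile. Deviations were from each gene's mean over the 16 libraries, so it is not a regression coefficient. It was -0.28 and -0.34 in the DMSO libraries and between -0.17 and 0.65 in the compound libraries. Over the 16 libraries the genes' median deviation had a Pearson r of 0.46 with the mesenchyme score, -0.43 with the endocrine score and with that of duct and pancreatic progenitors, -0.39 with the liver and gut score, -0.41 with the GC slope and 0.39 with the mitochondrially encoded score, given as descriptions. With a GC trend removed from each library the genes' median stayed negative for colchicine (-0.58), moxifloxacin (-0.39), rimonabant (-0.37), epirizole (-0.27), Ly-294002 (-0.24) and rottlerin (-0.19). The part of the mitochondrial transcripts in these differences was not tested.

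Among the transporters, SLC2A1 and SLC2A3 bring glucose into the cell and SLC16A3 exports lactate. SLC16A3 was at 47.6 and 44.51 CPM with DMSO. It was at 41.58 and 34.11 CPM with colchicine, 48.62 and 55.49 with epirizole, 49.64 and 42.99 with Ly-294002, and 57.44 and 42.03 with moxifloxacin. With rottlerin it was at 56.87 and 67.02 CPM, with vardenafil at 69.43 and 62.15, and with rimonabant at 53.77 and 67.67. So the lactate exporter was above both DMSO libraries in all libraries of epirizole, rottlerin, vardenafil and rimonabant, and below them in both colchicine libraries. SLC16A3 transcripts are 62.7% GC, and the DMSO libraries had the lowest GC slopes. The part of GC content in these differences was not tested for SLC16A3. The gene also shares 5.4% of its exon bases with CSNK1D on the other strand, which had 4332 to 7340 reads, and the strand setting at counting was not given. None of these passed: the log2 difference was 0.51 ± 0.16 (SE) with vardenafil (edgeR adjusted p = 0.89) and -0.28 ± 0.16 with colchicine (adjusted p = 0.383), and SLC16A3 had the smallest adjusted p of the list among the 7 compounds, 0.417.

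SLC2A1 ranged more widely inside treatments. It was at 444 and 605.3 CPM with DMSO, 300 and 453.9 with colchicine, 348.6 and 546.4 with epirizole, and 602.3 and 366.7 with Ly-294002. It was at 517.1 and 267.9 CPM with moxifloxacin, 398.7 and 506.1 with rottlerin, 870.8 and 563.2 with vardenafil, and 510.9 and 461.5 with rimonabant. With every compound the range overlapped that of DMSO, and vardenafil 1 was the highest of the 16. SLC2A3 was at 1911 and 2515 CPM with DMSO, 1316 and 1609 with colchicine, 1377 and 2232 with epirizole, and 2170 and 1498 with Ly-294002. It was at 1916 and 1220 CPM with moxifloxacin, 1477 and 2365 with rottlerin, 2973 and 2265 with vardenafil, and 1885 and 1343 with rimonabant. Both colchicine and both rimonabant libraries of SLC2A3 lay below DMSO, with log2 differences of -0.60 ± 0.35 and -0.46 ± 0.35 (SE), neither past the threshold (edgeR adjusted p = 0.426 and 0.49).

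In the upper part of glycolysis, which prepares and splits the sugar, PFKL was set apart from its neighbours. This phosphofructokinase subunit was at 123 and 134.4 CPM with DMSO, 152.1 and 152.5 with colchicine, 148.3 and 134.8 with epirizole, and 146.7 and 126 with Ly-294002. It was at 144.7 and 145.8 CPM with moxifloxacin, 169 and 173.1 with rottlerin, 162.5 and 152.2 with vardenafil, and 160.6 and 219.8 with rimonabant. All compounds but Ly-294002 had both libraries above DMSO. The log2 difference with rimonabant was 0.56 ± 0.12 (SE), edgeR adjusted p = 0.018, and with rottlerin 0.41 ± 0.12, adjusted p = 0.136. The rimonabant call was lost without DMSO 1 (0.50, adjusted p = 0.112), DMSO 2 (0.63, 0.165) or rimonabant 2 (0.32, 0.234). PFKL transcripts are 64.1% GC and rimonabant 2 had the highest GC slope of the libraries, 0.65. With the GC trend removed the log2 difference was -0.02 (edgeR adjusted p = 0.971).

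The other upper enzymes mostly lay below DMSO. With colchicine 7 of these 9 genes were below 0, and the largest differences were those of the inducible hexokinase HK2 (-1.23 ± 0.49, SE) and of the brain-type aldolase ALDOC (-0.93 ± 0.21), with edgeR adjusted p of 0.244 and 0.0609. The value for ALDOC was the smallest adjusted p of the list for colchicine. The isomerases GPI and TPI1 had log2 differences of -0.59 ± 0.15 and -0.46 ± 0.14 with colchicine. HK1, the constitutive hexokinase, differed by -0.13 ± 0.14 and PFKM, the muscle-type phosphofructokinase, by 0.02 ± 0.10. With vardenafil all 9 upper genes were above 0, by 0.05 to 0.39, and none passed.

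In the lower part, which yields ATP and pyruvate, PGK1 was at 364.5 and 421.2 CPM with DMSO. It was at 232.2 and 220.3 CPM with colchicine, 258.1 and 363.5 with epirizole, 325.8 and 268.5 with Ly-294002, and 320.3 and 245 with moxifloxacin. It was at 277 and 365.4 CPM with rottlerin, 400.9 and 396 with vardenafil, and 283.3 and 280.5 with rimonabant. The colchicine libraries were the lowest of the 16, and those of epirizole, Ly-294002, moxifloxacin and rimonabant also lay below both DMSO libraries, whereas vardenafil lay within the DMSO range. The log2 difference was -0.80 ± 0.18 (SE) with colchicine, edgeR adjusted p = 0.0631, and -0.39 ± 0.13 over all 7 compounds, adjusted p = 0.164. Without either epirizole library the colchicine value for PGK1 passed (-0.80, adjusted p = 0.0392 and 0.0391).

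Enolase and pyruvate kinase act near the end of the pathway. ENO1 was at 754.4 and 952.9 CPM with DMSO, 503.5 and 527.6 with colchicine, 548.8 and 772.9 with epirizole, and 767.7 and 591.8 with Ly-294002. It was at 655.8 and 522.3 CPM with moxifloxacin, 591.6 and 812.5 with rottlerin, 949.9 and 872.2 with vardenafil, and 671.9 and 736 with rimonabant. Colchicine, moxifloxacin and rimonabant were below both DMSO libraries of ENO1 without overlap. ENO2, the neuronal enolase, differed by -1.05 ± 0.27 (SE) with colchicine (edgeR adjusted p = 0.0961). GAPDH, which makes NADH and is often used as a reference gene, was at 1014 and 1215 CPM with DMSO, 920.7 and 999.8 with colchicine, 936.6 and 1089 with epirizole, and 1117 and 898 with Ly-294002. It was at 1067 and 921.7 CPM with moxifloxacin, 1003 and 1152 with rottlerin, 1377 and 1136 with vardenafil, and 1103 and 1136 with rimonabant. Its span over the 16 libraries was 1.533-fold, wider than that of PGAM1 (1.298-fold) and PKM (1.326-fold) and narrower than that of PGK1 (1.911-fold).

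LDHA was at 711.4 and 859.4 CPM with DMSO. It was at 392.8 and 352.2 CPM with colchicine, 455.4 and 742.2 with epirizole, 677.9 and 505 with Ly-294002, and 583.5 and 425.9 with moxifloxacin. It was at 471 and 731.5 CPM with rottlerin, 761.2 and 797.2 with vardenafil, and 499.6 and 453.5 with rimonabant. Colchicine, Ly-294002, moxifloxacin and rimonabant were below both DMSO libraries; epirizole 2 and rottlerin 2 lay inside the DMSO range. The log2 difference was -1.08 ± 0.27 (SE) with colchicine (edgeR adjusted p = 0.0969), -0.72 ± 0.27 with rimonabant (adjusted p = 0.128) and -0.52 ± 0.19 over all 7 compounds (adjusted p = 0.225). LDHB, the subunit that favours pyruvate, ranged from 16.61 to 26.11 CPM and differed by 0.21 ± 0.15 with colchicine.

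**Figure D3:**
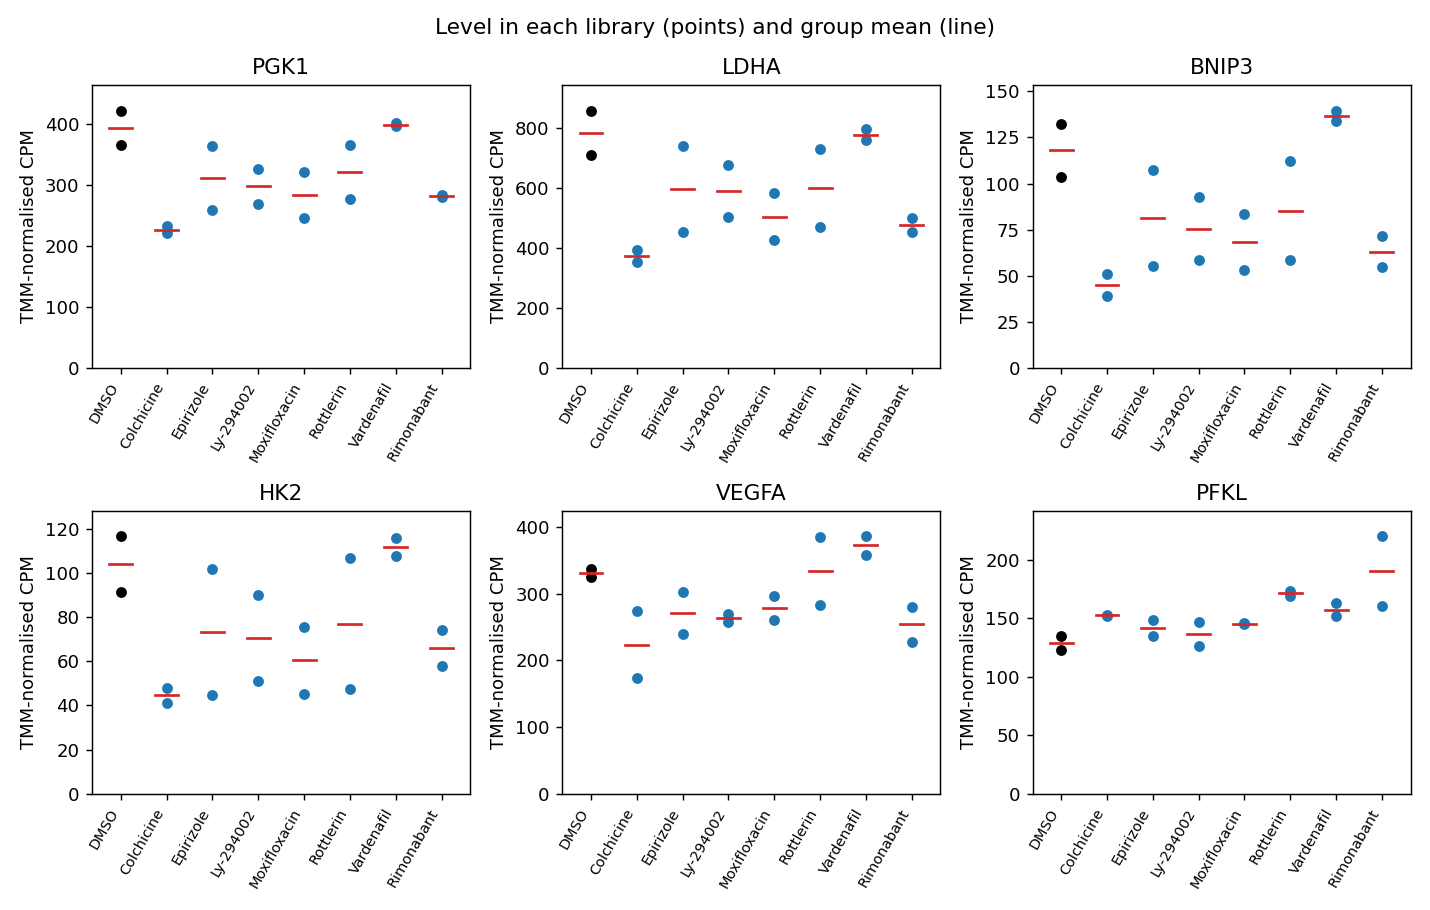
TMM-normalised CPM (vertical axis, from 0) of 6 genes in each library (points, black for DMSO) with the group mean (red line); groups are on the horizontal axis. PGK1, LDHA, BNIP3 and HK2 share 1 profile, with colchicine lowest and vardenafil close to DMSO, while the group mean of PFKL is highest with rimonabant (160.6 and 219.8 CPM).

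Of the genes that set the direction of flux, PFKFB4 makes an activator of phosphofructokinase. It was at 43.68 and 54.64 CPM with DMSO, 30.25 and 36.52 with colchicine, 33.15 and 46.6 with epirizole, and 45.56 and 32.66 with Ly-294002. It was at 39.86 and 32.17 CPM with moxifloxacin, 40.02 and 52.14 with rottlerin, 70.58 and 54.34 with vardenafil, and 45.26 and 46.39 with rimonabant. Colchicine and moxifloxacin were below DMSO without overlap, and vardenafil 1 was the highest library. Its log2 difference was -0.56 ± 0.22 (SE) with colchicine (edgeR adjusted p = 0.207). The related PFKFB3 did not share this profile: it ranged from 86.24 to 200.9 CPM and differed by 0.25 ± 0.26 with colchicine. PDK1, a kinase that inhibits pyruvate dehydrogenase, differed by -0.71 ± 0.35 with colchicine, and was lowest in rimonabant 2 at 50.25 CPM.

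Among secreted HIF targets, the vessel growth factor VEGFA was at 325.5 and 337.8 CPM with DMSO, 273.5 and 173.3 with colchicine, 239.1 and 302.4 with epirizole, and 269.6 and 257.6 with Ly-294002. It was at 296.6 and 260.3 CPM with moxifloxacin, 282.8 and 384.9 with rottlerin, 358.8 and 386 with vardenafil, and 227.4 and 280.6 with rimonabant. Both libraries of 5 compounds lay below DMSO and those of vardenafil above. The log2 difference over all 7 compounds was -0.24 ± 0.15 (SE), edgeR adjusted p = 0.471. ADM, the peptide adrenomedullin, ranged from 28.41 to 50.18 CPM and was not lower with colchicine (0.32 ± 0.22).

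Both receptors for mitophagy were low with colchicine. BNIP3L was at 188.2 and 204.9 CPM with DMSO, 124.7 and 109.3 with colchicine, 129.2 and 186.1 with epirizole, and 175.1 and 140.1 with Ly-294002. It was at 153.1 and 130.6 CPM with moxifloxacin, 124.4 and 184.1 with rottlerin, 194.7 and 193.9 with vardenafil, and 137.4 and 112.7 with rimonabant. All compounds except vardenafil had both libraries below DMSO. The log2 difference of BNIP3L was -0.75 ± 0.21 (SE) with colchicine (edgeR adjusted p = 0.106) and -0.65 ± 0.21 with rimonabant (adjusted p = 0.0741). BNIP3 had the largest log2 difference of all 35 genes with colchicine, -1.39 ± 0.42 (adjusted p = 0.136), from 103.5 and 132.5 CPM with DMSO to 51.16 and 38.93.

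The oxygen-dependent enzymes include the collagen prolyl hydroxylases P4HA1 and P4HA2 and the demethylase KDM3A. KDM3A was at 130 and 134.2 CPM with DMSO, 111.3 and 126.5 with colchicine, 115.1 and 123.5 with epirizole, and 111.8 and 107.2 with Ly-294002. It was at 109.3 and 116.8 CPM with moxifloxacin, 112.2 and 110 with rottlerin, 123.7 and 129 with vardenafil, and 113.6 and 102.2 with rimonabant. The difference was small and in 1 direction: -0.20 ± 0.06 (SE) over all 7 compounds, edgeR adjusted p = 0.153. P4HA1 differed by -1.01 ± 0.31 with colchicine (adjusted p = 0.142), against -0.16 ± 0.14 for P4HA2. EGLN3, which hydroxylates the HIF proteins, differed by -0.94 ± 0.41 with colchicine from a low level, 13.16 and 10.71 CPM with DMSO.

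MXI1, a MAX-binding repressor that opposes MYC, had the smallest adjusted p of the list over all 7 compounds. It was at 27.77 and 33.34 CPM with DMSO, 26.3 and 23.81 with colchicine, 24.44 and 26 with epirizole, and 21.97 and 23.93 with Ly-294002. It was at 21.06 and 23.15 CPM with moxifloxacin, 22.96 and 21.96 with rottlerin, 25.47 and 30.12 with vardenafil, and 23.88 and 22.36 with rimonabant. Vardenafil 2 was the only compound library inside the DMSO range. The log2 difference over all 7 was -0.35 ± 0.09 (SE), edgeR adjusted p = 0.108. NDRG1, a stress-induced gene, differed by -0.77 ± 0.29 with colchicine and ranged from 210.1 to 580 CPM, the highest being rottlerin 2.

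The genes differed in how closely they followed PGK1 from library to library. Over the 16 libraries, which share treatments in pairs, the Pearson r of log2 CPM with PGK1 was 0.99 for LDHA, 0.98 for BNIP3, 0.97 for P4HA1 and 0.96 for HK2 and ENO2. The median r of the other 34 tested genes was 0.84, against 0.00 over 17598 genes of at least 1 CPM. An r above 0.5 was found for 22 of them and for 15.6% of those genes. Several genes of the same pathway did not follow: r was 0.26 for the mutase PGAM1, 0.05 for PFKFB3, 0.02 for ANGPTL4, -0.11 for PFKM, -0.16 for PFKL, -0.31 for LDHB and -0.41 for ADM. In the order of PGK1 levels, DMSO 2 was highest, followed by both vardenafil libraries, and both colchicine libraries were last; neighbours such as rottlerin 2, DMSO 1 and epirizole 2 (365.4, 364.5 and 363.5 CPM) were not separated by more than the spread between libraries of 1 group.

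**Figure D4:**
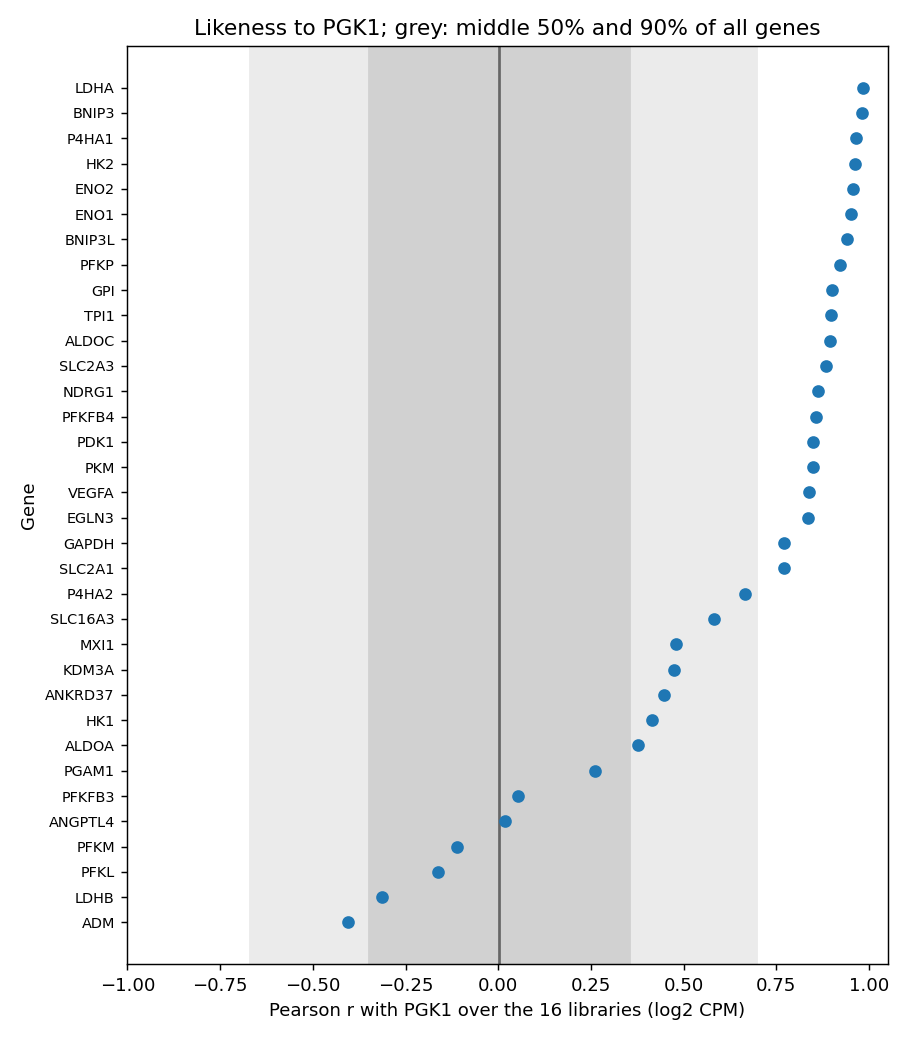
Pearson r of log2 CPM with PGK1 over the 16 libraries (horizontal axis) for the other 34 tested genes (vertical axis, sorted); grey bands hold the middle 50% and 90% of genes of at least 1 CPM. LDHA (0.99) is at the top, and 20 genes lie to the right of the 90% band, whose upper end is 0.70.

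The libraries of a treatment differed in endocrine content. The endocrine score, a mean log2 CPM of 13 marker genes, ran from 2.32 to 4.45, and the libraries of 1 treatment differed by 0.48 to 1.64. Within treatments, 6 of the 35 genes fell as the score rose by edgeR's quasi-likelihood test with Benjamini-Hochberg adjustment, none rose, and 3.15% of all tested genes passed. The slopes, in log2 units per unit of score, were -0.44 ± 0.04 (SE) for SLC2A1 (adjusted p = 1.54e-05), -0.38 ± 0.04 for SLC2A3 (6.26e-05) and -0.26 ± 0.04 for PFKFB4 (0.00136). They were -0.15 ± 0.03 for GAPDH (adjusted p = 0.00954), -0.21 ± 0.04 for ENO1 (0.0114) and -0.17 ± 0.04 for PGK1 (0.0401). The slope was below 0 for 31 of the 35 genes, with a median of -0.13 against 0.00 over all genes.

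Pair by pair, the library richer in endocrine RNA had the lower SLC2A1 and the lower SLC2A3 in 8 of 8 treatments, by 0.15 to 0.95 and by 0.29 to 0.70 on the log2 scale. PFKFB4, GAPDH and ENO1 were lower in 7 of 8, the exception being rimonabant, whose libraries differed least in score. PGK1 was lower in 7 of 8, the exception being colchicine. Of the 35 genes, 12 were lower in at least 7 pairs, as were 8.14% of all tested genes. The score was measured in the same libraries, so cell content and expression per cell cannot be told apart in this relation. Leaving out either library of a treatment takes its whole pair out of the slope. The fits for a treatment therefore nearly repeat each other and are not separate checks. The PGK1 slope no longer passed in 12 of the 16 fits that each left out 1 library: those without either library of DMSO, epirizole, Ly-294002, moxifloxacin, rottlerin or rimonabant (slopes -0.14 to -0.18, edgeR adjusted p up to 0.182). That of ENO1 was lost without either library of epirizole (-0.19, adjusted p = 0.0688) or moxifloxacin (-0.21, 0.0536 and 0.0543). The number of calls was 12 without either colchicine library, where 595 and 601 of all genes were called. It was 4 without either library of epirizole (313 and 323 of all genes) or moxifloxacin (288 and 283).

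**Figure D5:**
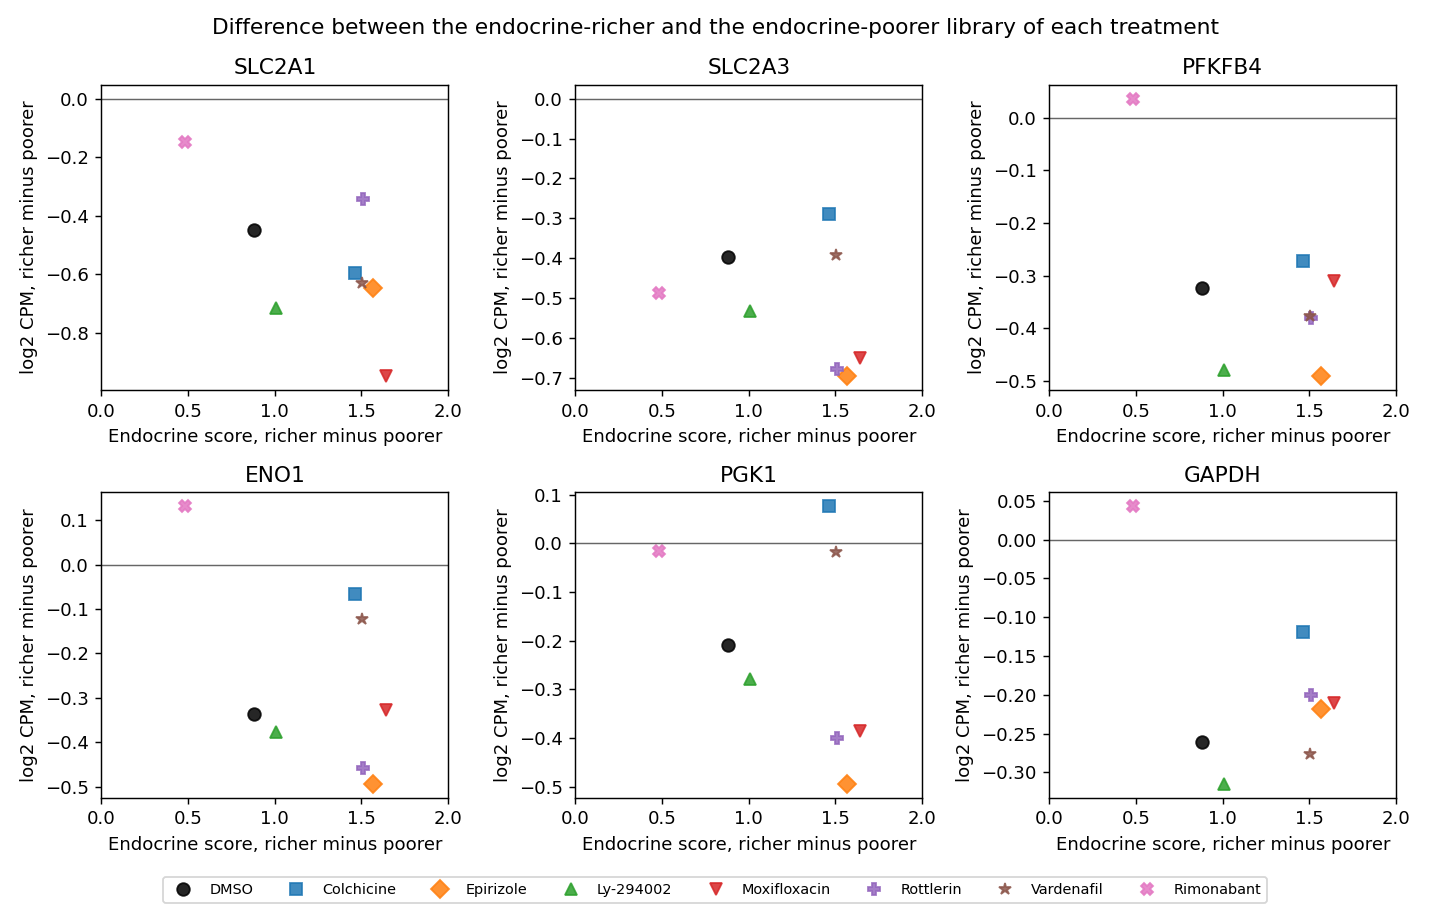
For each treatment, the log2 CPM of the endocrine-richer library minus that of the endocrine-poorer one (vertical axis) against the difference in endocrine score (horizontal axis), for 6 genes of the list; each symbol is 1 treatment. All 8 symbols are below 0 for SLC2A1 and SLC2A3, and 7 of 8 for the other 4 genes.

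With the endocrine score added as a term to the comparison of treatments, more of the genes passed. This setting uses a score measured after treatment; for PGK1 with colchicine it took the SE from 0.18 to 0.11. For colchicine 12 of the 35 genes passed, all lower, where 5.89% of all genes did: SLC2A1, SLC2A3, GPI, ALDOC, TPI1, PGK1, ENO1, ENO2, LDHA, PFKFB4, BNIP3 and BNIP3L. PGK1 differed by -0.82 ± 0.11 (SE), edgeR adjusted p = 0.00355, and LDHA by -1.10 ± 0.19, adjusted p = 0.0146. For rimonabant 8 passed (14.7% of all genes): PFKL was higher, and SLC2A3, PGK1, ENO1, LDHA, BNIP3L, KDM3A and MXI1 were lower. For all 7 compounds together 5 passed, all lower (4.28% of all genes): SLC2A3, PGK1, ENO1, BNIP3L and MXI1. Among the 7 compounds 6 passed (0.347% of all genes), namely SLC2A1, SLC2A3, GPI, PGK1, ENO1 and PFKFB4. Epirizole, Ly-294002, moxifloxacin, rottlerin and vardenafil had no call among the genes in this fit, where 0%, 0%, 0.0775%, 3.08% and 0.00408% of all genes passed.

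Within families of isoforms, shares were taken per base of all annotated exons and depend on that length. PFKL and PFKP had median shares of 39.63% and 41.17% per base, and of 50.9% and 28.84% when not scaled by length. HK2 made up 53.28% and 55.02% of HK1 and HK2 together with DMSO, and from 31.64% to 61.97% with the compounds. PFKL made up 33.91% and 34.33% of the phosphofructokinase subunits with DMSO and 35.99% to 47.31% with the compounds, so every compound library was above both DMSO libraries. These shares were not corrected for GC content, whose part was not tested. Transcripts are 64.1% GC for PFKL, 57.5% for PFKP and 51.5% for PFKM, and the DMSO libraries had the lowest GC slopes (-0.28 and -0.34). LDHA was 93.91% and 95.25% of LDHA and LDHB with DMSO and 86.63% to 95.02% with the compounds. SLC2A3 was 69.07% to 78.18% of SLC2A1 and SLC2A3 over all libraries. ALDOA, the main aldolase of most cell types, stood at only 1.978 RPKM, below ALDOC at 5.368. It shares 42.3% of its exon bases with a readthrough gene on the same strand that had 6 to 62 reads, and LDHB shares 33.4% with another that had 0 to 7 reads. How reads in shared exons were assigned was not given, so the levels of ALDOA and LDHB and the shares that use them are uncertain. ANKRD37 shares 35.2% of its exon bases with UFSP2 on the other strand, and the strand setting at counting was not given.

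The genes that sense oxygen act upstream of these targets, and none of 10 of them passed in any comparison or for the endocrine slope by edgeR's test. HIF1A ranged from 212.1 to 328.4 CPM, EPAS1 from 159 to 254.8, and VHL, which marks HIF proteins for destruction, from 77.54 to 92.22. Of 20 other HIF targets, 2 passed with rimonabant, near the 7.8% of all genes that did: ERO1A, an oxidase of the endoplasmic reticulum, fell (-0.81 ± 0.20, SE, edgeR adjusted p = 0.0367) and the demethylase KDM4B rose (0.40 ± 0.10, adjusted p = 0.0299). With colchicine 17 of these 20 were below 0, with a median of -0.33 and no call. Of 23 tested genes of glycolysis, gluconeogenesis and pyruvate use, only PGAM5 passed with rimonabant and rose (0.48 ± 0.13, adjusted p = 0.0402), against the same 7.8%. It is a mitochondrial phosphatase. For rimonabant 0 genes of the whole table passed with the GC trend removed, or without DMSO 1, DMSO 2 or rimonabant 2, so these 3 calls were lost there too.

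On the endocrine slope the wider pathway split. PDK3, a kinase of pyruvate dehydrogenase, rose with the score by 0.14 ± 0.03 (SE; edgeR adjusted p = 0.0342) and was higher in the richer library of 7 of 8 pairs. Among the other HIF targets, the glycogen branching enzyme GBE1 fell (-0.34 ± 0.06, adjusted p = 0.00472), as did BHLHE40, a repressor of the clock (-0.36 ± 0.08, 0.0283), and PPP1R3C, a scaffold of glycogen synthesis, rose (0.64 ± 0.15, 0.035). Among the 10 genes outside these lists that were most like the median deviation of the 31 genes of at least 10 CPM, by Pearson r over 16 libraries, were PLEKHA2 (0.96), NRN1 (0.95), DEPTOR (0.94), EIF4B (0.94), ZNF395 (0.93), MYCT1 (0.93), MPZL2 (0.93), DSP (0.92) and STK24 (0.91). NRN1, at a median of 0.811 CPM, and MYCT1, at 1.171 CPM, were little expressed.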

How the data were processed

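Bulk total RNA of 16 libraries (8 treatments, 2 each) was measured. The authors deposited 1 table of whole-number counts by gene, without normalisation. Tools in the labels' protocols were STAR 2.7.1a for alignment after Trimmomatic 0.38, then featureCounts 1.6.0 or HTSeq; the build GRCh38 is in the submitters' processing notes. Annotation, strand setting and the fate of multiply mapped reads are not given in the sources used here, so overlapping genes and copies are uncertain. Reads on annotated processed copies were at most 5.53% of those on their parent gene (PGAM1). No column was left unmapped.

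Tests used edgeR 4.0.16 under R 4.3.3 (limma 3.58.1 loaded): filterByExpr kept 24515 genes with 99.92% of reads, libraries were scaled by TMM, and 1 fit with 8 group coefficients left 8 residual degrees of freedom. Tests were two-sided quasi-likelihood F tests, with Benjamini-Hochberg adjustment across the tested genes and a threshold of 0.05. The endocrine slope added the score (log2 CPM with a prior count of 2) to that fit. Scripts were tested on simulated counts. Alternatives were DESeq2 1.42.0, relative log expression factors, no filter, a replicate block, a GC offset (lowess span 0.3), the endocrine score as a term, a score from CHGA alone, shares not scaled by length, and leaving out each library; the GC slope as a term was added after seeing the data. Lengths and GC content came from GENCODE 29 (58261 of 62754 genes, all 36 members), and promoter windows from RefSeq on GRCh38.p14.

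The members, lists and tests were chosen with earlier results of these data known. Values in every library are given for genes past the threshold in any comparison, for PGK1 and LDHA, and for the gene of each of 9 role groups with the smallest p over all 7 compounds. Pathway genes are named where they passed, up to 4 per comparison. The 10 most similar genes were taken by Pearson r. Some genes these rules pick are not reported here. Other genes were named as examples after their values were seen.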

Additional observations from a re-analysis of the deposited data

Results flagged for a closer look

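For 6 genes, every library of some compounds lay below both DMSO libraries while every library of another compound lay above them. Of all tested genes 14.7% showed the same, near the share of the 35 genes. The compounds were not tested one against another, and edgeR's joint test among the 7 called none of the 6 genes; with the endocrine score as a term it called GPI (adjusted p = 0.0479). VEGFA was lower in this sense with 5 compounds (colchicine, epirizole, Ly-294002, moxifloxacin and rimonabant) and higher with 1, vardenafil. GPI was lower with 4 (colchicine, epirizole, Ly-294002 and moxifloxacin) and higher with vardenafil. PFKP was lower with 4 (colchicine, epirizole, moxifloxacin and rimonabant) and higher with vardenafil. ENO2 and BNIP3 were each lower with 4 (colchicine, Ly-294002, moxifloxacin and rimonabant) and higher with vardenafil. SLC16A3 was lower with 1 compound, colchicine, and higher with 4 (epirizole, rottlerin, vardenafil and rimonabant). BNIP3 was at 134 and 139.5 CPM with vardenafil, against 103.5 and 132.5 CPM with DMSO. ENO2 was at 92.62 and 97.67 CPM with vardenafil, against 68.88 and 89.56 CPM with DMSO.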

How the results depend on the processing

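The direction of the genes' median held in each comparison under DESeq2, relative log expression factors, no filter, the replicate block, the GC offset and the endocrine term, and without each library it held for all but rottlerin. Without 1 library the medians ran from -0.435 to -0.033 for epirizole, from -0.351 to -0.091 for Ly-294002 and from -0.293 to 0.054 for rottlerin. Counts of genes past the threshold moved far more. With DESeq2 they were 11 for colchicine, 6 for rimonabant, 1 for rottlerin, 1 for all 7 compounds together and 7 among the compounds, against 0, 1, 0, 0 and 0; of all genes 926, 2936, 678, 714 and 401 passed, against 48, 1913, 2, 0 and 1. With no filter they were 18 for colchicine, 1 for epirizole, 6 for Ly-294002, 11 for moxifloxacin, 6 for rottlerin, 2 for vardenafil, 14 for rimonabant, 12 for all 7 together, 25 among the compounds and 17 for the endocrine slope; of all genes 1568, 33, 169, 742, 1076, 113, 2686, 1117, 2100 and 1846 passed, in the same order. That fit tested 44689 genes, against 24515 with the filter. It put the prior degrees of freedom at infinity, against a median of 7.041 with the filter. With the endocrine score as a term they were 12 for colchicine, 8 for rimonabant, 5 for all 7 together and 6 among the compounds. With the GC offset the count for rimonabant was 0. Without 1 library the counts ran from 0 to 1 for colchicine, rottlerin and all 7 together, from 0 to 3 for rimonabant and from 4 to 12 for the slope. For rottlerin and all 7 together the 1 call came only in fits without a rimonabant library. More of all genes were called in those fits than with all 16 libraries, so the rise was not confined to the list. Where nothing else is stated, the cause was not tested.

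Of 1063 values of single genes recomputed, 974 kept direction and side of the threshold, 22 lost the threshold, 60 gained it and 7 turned direction. With the GC offset PFKL with rimonabant was -0.019 and LDHA with vardenafil 0.045 (main -0.012). Without 1 library HK2 ran from -1.135 to 0.04 with rottlerin and from -0.061 to 0.287 with vardenafil, LDHA with vardenafil from -0.141 to 0.131, and PGK1 with vardenafil from -0.08 to 0.128. The slope of PGK1 also lost the threshold with the GC offset (-0.15, edgeR adjusted p = 0.0709) and with the GC slope of the library as a term (-0.16, 0.14).

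The replicate numbers were not used to pair libraries: over 28 pairs of groups the correlation of same-numbered deviations ran from -0.513 to 0.419, with 9 over 0.1. With the replicate block the endocrine slope called 5 genes in place of 6, PGK1 being lost (-0.17, edgeR adjusted p = 0.0571), PFKL with rimonabant still passed (0.56, 0.0321), and the median for colchicine was -0.458. Depth limits CA9, whose 0 to 10 reads could not be tested, and ANGPTL4, at a median of 0.8754 CPM.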
